A study of Mus musculus with 11 samples.

Results

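The 46 genes described here carry out DNA replication and cell division, and they were chosen by symbol from the 14604 genes of the deposited mouse table, by a rule that sets no threshold on their values but was written with earlier results of these data known. They comprise 17 S-phase genes and 29 mitotic genes. All 46 were listed, and all 46 were among the 13897 genes kept for testing by a mean log2(n + 1) of at least 0.5. Regulatory T cells (Tregs, the CD4+ T cells that restrain immune responses) had been sorted as live CD4+GITR+CD25+ cells from tumors of MC38, an implanted mouse colon carcinoma cell line, and from the spleens of the same tumor-bearing mice. Ribosomal RNA was depleted and the remaining RNA was sequenced in 11 libraries. Of these, 3 spleen and 3 tumor libraries carried the label CD177flox/flox (wild type, WT), and 3 spleen and 2 tumor libraries carried the label CD177flox/flox/FOXP3-CreYFP (knockout, KO). All mice thus carried floxed CD177 alleles and MC38 cells, and the Cre recombinase of the KO mice is made where Foxp3 is expressed. Age, sex and pooling of mice were not given in the labels used here. Cd177 was not analysed here, which leaves the genotype labels unchecked. Nothing in the labels says that the libraries of a group came from separate mice, so the p-values below measure only the spread between these libraries.

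A cell that enters division first licenses its replication origins with the MCM helicase, and E2F transcription factors then switch on the genes for helicase loading, the sliding clamp and nucleotide supply in S phase. Mitotic genes follow later, under FOXM1, B-MYB and the DREAM and MMB complexes, which act through CHR elements near start sites, often beside CCAAT boxes bound by NF-Y. Most T cells of a spleen are at rest, while activated Tregs can divide in tissue. In bulk samples, fewer cells of a type and less RNA per cell cannot be told apart, so a level here cannot be assigned to a share of dividing cells.

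Promoter windows show how the gene sets differ in sequence. The choice of genes did not read sequences, but the motifs searched are those named above for these same classes of genes. Their shares are thus a description and not independent support for the split. RefSeq windows of 300 bases on GRCm38.p6, from 250 bases before to 50 after the start, were found for 38 of the 46 genes (16 S-phase and 22 mitotic). An E2F motif, searched as TTTCGCGC, TTTGGCGC or TTTCCCGC on both strands, was present in 7 of the 16 S-phase windows (43.8%) and in 1 of the 22 mitotic windows (4.55%), against 1.91% of all 27025 promoters and 3.61% of the 10362 promoters of tested genes. The S-phase windows that held it were those of Cdc6, Cdt1, Mcm3, Mcm5, Mcm6, Mcm7 and E2f2, and the mitotic window was that of Cdk1. The CHR motif, searched as TTTGAA on both strands, was present in 17 mitotic windows (77.3%) and in 2 S-phase windows (12.5%), against 18.1% of all promoters and 12.3% of those of tested genes. The mitotic E2F share and the S-phase CHR share were thus near the shares among tested genes. CCAAT on either strand was present in 86.4% of mitotic, 62.5% of S-phase, 37.9% of all and 38.9% of tested-gene windows. CHR and CCAAT together were present in 72.7% of mitotic, 12.5% of S-phase, 7.12% of all and 5.13% of tested-gene windows. A match is a description of the letters, not of a bound site, and the E2F strings can overlap each other on opposite strands. The RefSeq starts also differ from the GENCODE M21 gene positions for some genes. By those positions the windows of Cdc6, Mcm7 and E2f1 lie wholly inside the gene. Those of Mcm5, E2f2 and Hmgb2 lie wholly before it. The windows below run to 30 bases after the start and show the E2F letters of 2 helicase genes (Mcm5 at chr8:75109259-75109538, plus strand; Mcm6 at chr1:128359676-128359955, minus strand), a window with all 3 motifs (Cdk1 at chr10:69352883-69353162, minus strand) and 2 mitotic windows with CHR and CCAAT only (Ccnb2 at chr9:70421525-70421804, minus strand; Top2a at chr11:99024160-99024439, minus strand). Capitals mark the motif letters, on either strand.
Mcm5: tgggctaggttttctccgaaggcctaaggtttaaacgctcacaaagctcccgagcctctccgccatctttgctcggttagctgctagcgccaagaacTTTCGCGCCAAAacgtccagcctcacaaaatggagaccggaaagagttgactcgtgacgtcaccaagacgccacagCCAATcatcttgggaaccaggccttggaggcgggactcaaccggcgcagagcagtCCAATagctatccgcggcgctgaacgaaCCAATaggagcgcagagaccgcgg
Mcm6: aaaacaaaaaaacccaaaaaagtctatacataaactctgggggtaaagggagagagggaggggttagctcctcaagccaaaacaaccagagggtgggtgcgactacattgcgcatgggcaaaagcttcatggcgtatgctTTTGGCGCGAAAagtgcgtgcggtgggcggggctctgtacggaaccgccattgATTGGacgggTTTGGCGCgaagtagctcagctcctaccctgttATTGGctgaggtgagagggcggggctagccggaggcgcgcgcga
Cdk1: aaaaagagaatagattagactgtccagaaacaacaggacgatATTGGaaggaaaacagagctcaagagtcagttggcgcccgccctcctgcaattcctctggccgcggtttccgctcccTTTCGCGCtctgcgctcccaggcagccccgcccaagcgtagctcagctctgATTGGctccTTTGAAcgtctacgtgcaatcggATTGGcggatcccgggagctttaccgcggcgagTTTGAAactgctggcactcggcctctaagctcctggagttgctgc
Ccnb2: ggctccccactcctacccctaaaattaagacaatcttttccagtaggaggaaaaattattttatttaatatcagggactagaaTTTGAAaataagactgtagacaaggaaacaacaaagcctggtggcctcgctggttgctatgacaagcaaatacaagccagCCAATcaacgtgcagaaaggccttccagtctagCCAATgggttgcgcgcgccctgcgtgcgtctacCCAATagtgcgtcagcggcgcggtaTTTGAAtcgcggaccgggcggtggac
Top2a: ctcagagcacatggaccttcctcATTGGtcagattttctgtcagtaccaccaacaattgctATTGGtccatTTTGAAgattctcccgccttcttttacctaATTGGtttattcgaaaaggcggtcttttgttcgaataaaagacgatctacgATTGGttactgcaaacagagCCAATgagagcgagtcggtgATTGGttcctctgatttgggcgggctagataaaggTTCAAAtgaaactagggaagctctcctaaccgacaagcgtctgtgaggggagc

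As deposited, libraries of TI-Tregs (tumor-infiltrating Tregs, as sorted) had more RNA of most cell cycle genes than libraries of spleen Tregs. The differences were larger for most mitotic than for most S-phase genes. Equal library totals turned 7 S-phase genes the other way, of which Mcm4, Mcm7 and Pcna were then called lower. Median centring and quantile normalization turned Pcna alone, but Mcm7 and Ccne1 were not called with either. With quantile normalization Mcm4 and Mcm6 were not called as well. Log2 of the summed myeloid markers also rose, from 8.37 to 9.33 in spleen to 13.8 to 14.3 in tumor libraries. The part of other cell types in these differences was not tested. Of the 46 genes, 42 were higher in the 5 tumor libraries than in the 6 spleen libraries, 2 were lower (E2f2 and Smc4) and 2 were not called (Pcna and Tyms), by limma with a Benjamini-Hochberg adjusted p below 0.05 over all genes tested. Of all 13897 genes, 78.9% were called in this comparison, 43.1% higher and 35.9% lower, so a call by itself is common here. The median difference was 0.59 for the S-phase genes, of which 14 rose and 1 fell, and 1.36 for the mitotic genes, of which 28 rose and 1 fell, beside 0.08 over all genes tested. A difference here is tumor minus spleen on the log2(n + 1) scale, which understates the change of genes with low values. A difference of at least 1 upward was reached by 23 of 29 mitotic and 4 of 17 S-phase genes, against 20.4% of all genes, and one of at least 1 downward by Smc4 alone among the 46, against 12.4% of all genes. Every tumor library lay above every spleen library for 28 mitotic and 13 S-phase genes, against 35.2% of all genes. Every tumor library lay below every spleen library for 1 mitotic gene, against 28.4% of all genes, and the groups overlapped for Pcna, Tyms, Ccne1 and E2f2.

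The direction of part of the S-phase genes depends on the scaling. The summed n of the tumor libraries (1103159 to 1304548) exceeded that of the spleen libraries (712832 to 844331), the scaling behind n is not stated, and 1 gene, Gm12896, made up 31.4 to 42.4% of each library's total. Equal library totals moved the median difference over all genes from 0.08 to -0.44, median centring to -0.14 and quantile normalization to -0.16. With equal totals, 5 S-phase genes were higher (Cdc45, Mcm5, Rrm1, Rrm2 and E2f1), 5 were lower (Mcm4, Mcm7, Pcna, Tyms and E2f2) and 7 were not called, while 26 mitotic genes were still higher and Smc4 was still lower. Under this scaling 79.9% of all genes were called, 23.6% higher and 56.3% lower. Relative to the shift of all genes, the position of the members moved little. As deposited, with median centring and with equal totals, 15 of 17 S-phase and 28 of 29 mitotic genes lay above the median of all genes, and with quantile normalization 14 and 28 did.

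**Figure D1:**
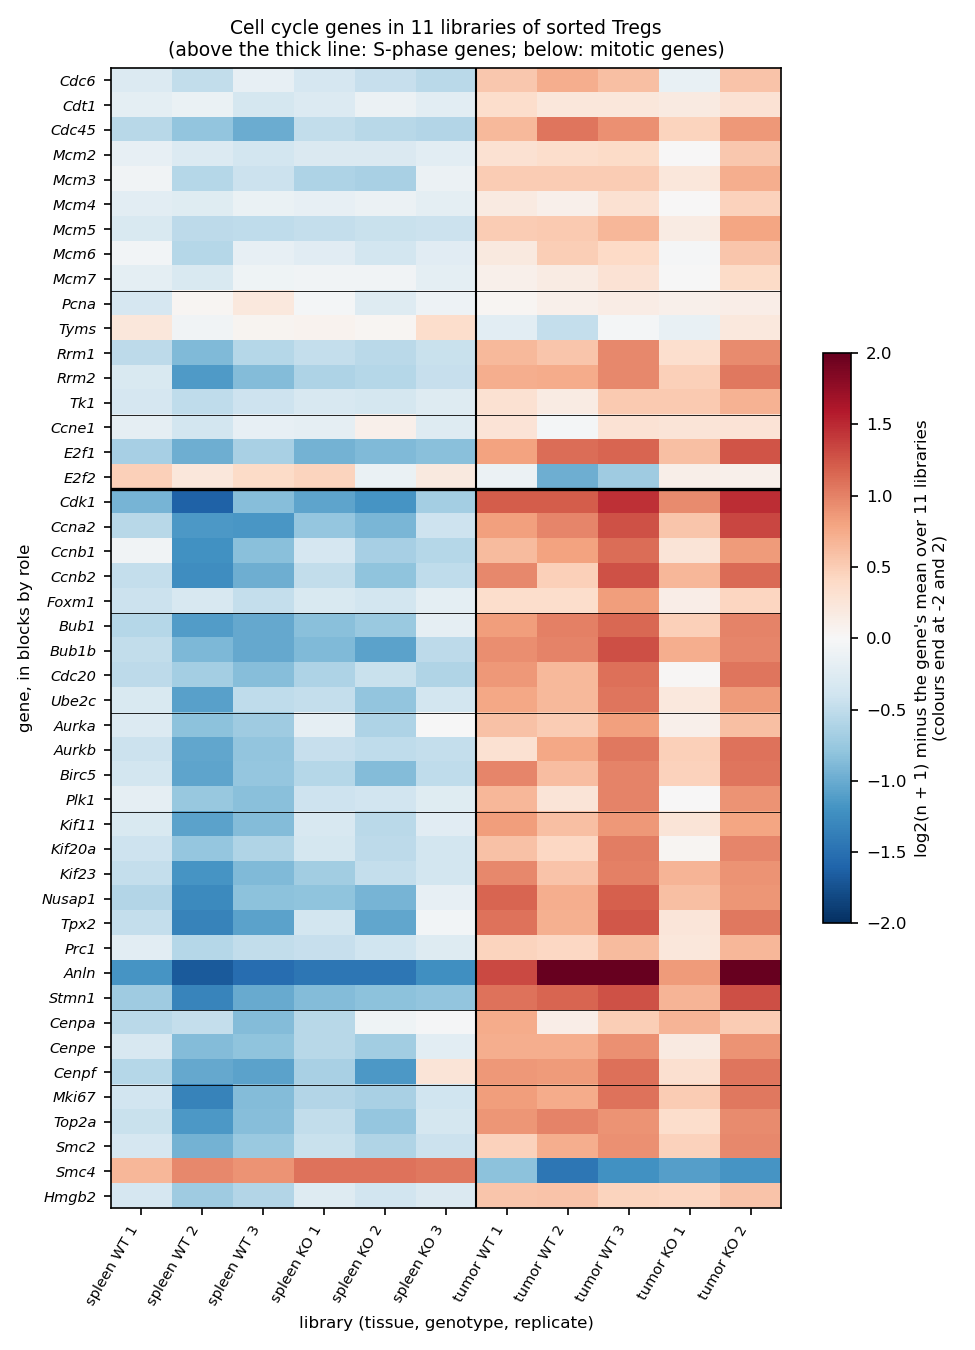
Values of the 46 genes (rows, in blocks by role) in the 11 libraries (columns), as log2(n + 1) minus the mean of that gene over the libraries, with colours ending at -2 and 2. Red stands for values above and blue for values below the mean of the gene. As deposited, the tumor columns are redder than the spleen columns for the 42 genes called higher and the reverse holds for Smc4, while Pcna and Tyms show no clear split by tissue; with equal library totals Pcna and 6 further S-phase genes change sign.

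**Figure D2:**
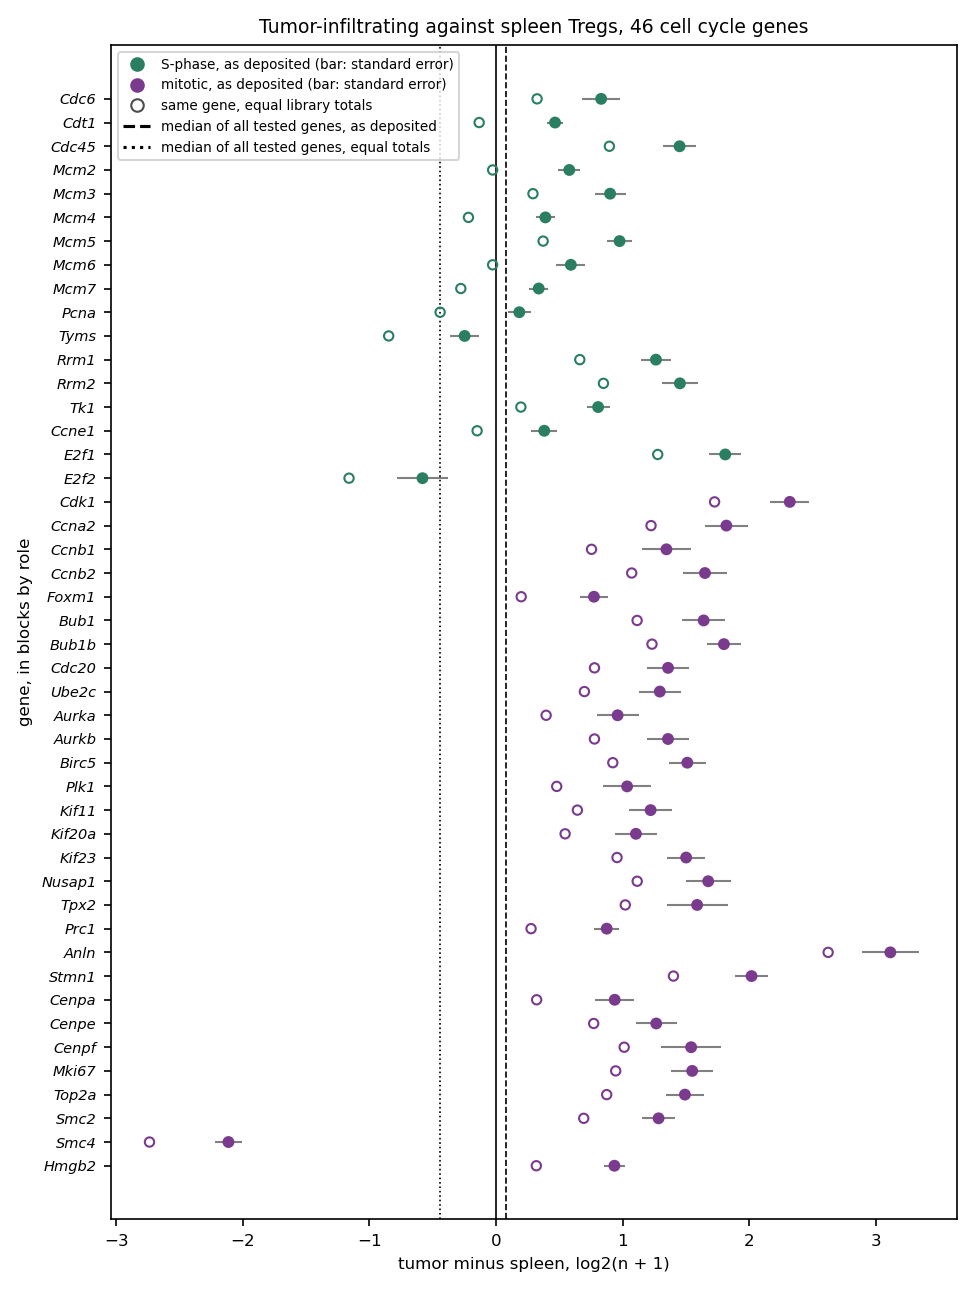
Tumor minus spleen difference (horizontal axis, log2(n + 1)) of each of the 46 genes, with filled points as deposited, bars of 1 standard error (SE) and open points after scaling all libraries to equal totals. The dashed and dotted lines mark the median of all tested genes under both scalings, 0.08 and -0.44. Most mitotic points (purple) lie further to the right than most S-phase points (green), with Smc4 far to the left and the S-phase genes E2f1, Cdc45, Rrm2 and Rrm1 among the mitotic points, and equal totals place 9 S-phase points left of 0, of which Tyms and E2f2 lie left of the dotted line and Pcna lies on it.

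The S-phase and the mitotic means can be set side by side within each library, which takes out most of any factor common to its genes. The mean log2(n + 1) of the 17 S-phase genes was 4.23 ± 0.08 in the 6 spleen libraries and 4.92 ± 0.15 in the 5 tumor libraries (mean ± SD). The mean of the 29 mitotic genes was 3.46 ± 0.24 and 4.80 ± 0.24 (SD, n = 6 and 5). The mean of the S-phase genes minus that of the mitotic genes ran from 0.52 to 0.99 in the spleen libraries and from -0.06 to 0.30 in the tumor libraries, so the tissues did not overlap. Its mean fell by 0.66 from spleen to tumor. This is a description, since the size of such a mean depends on which genes enter it, and only its change between libraries can be read. The mitotic genes also varied more among spleen libraries, with a median SD of 0.30 per gene against 0.15 for the S-phase genes, while in tumor libraries the medians were 0.26 and 0.22.

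**Figure D3:**
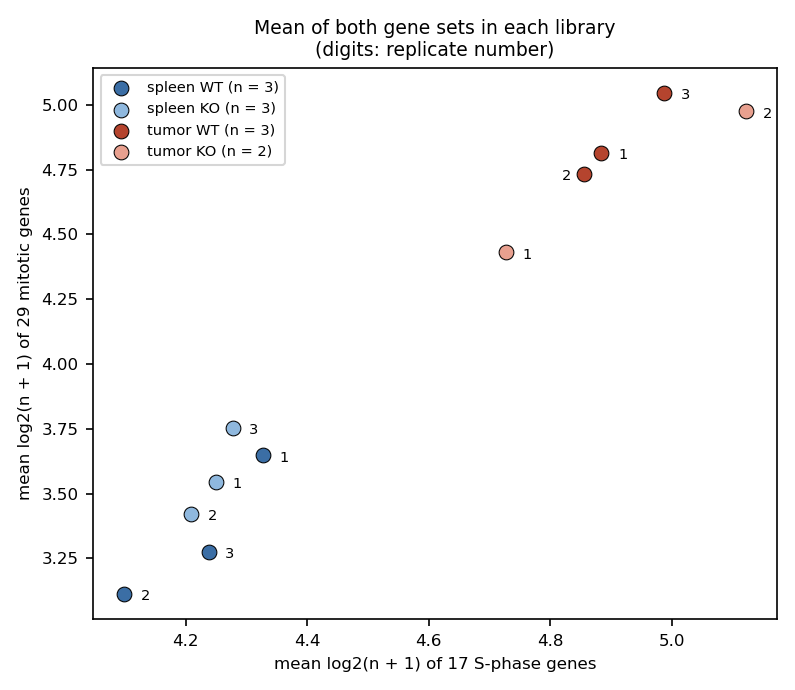
Mean log2(n + 1) of the 17 S-phase genes (horizontal axis) and of the 29 mitotic genes (vertical axis) in each of the 11 libraries, with points coloured by tissue and genotype and digits giving the replicate number. The tumor points lie at 4.73 to 5.12 on the S-phase axis and 4.43 to 5.05 on the mitotic axis as deposited, right of and above all spleen points.

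The licensing and helicase genes were higher in tumor as deposited in all 9 of 9, with a median difference of 0.59. However, Cdt1, Mcm2, Mcm4, Mcm6 and Mcm7 turned below 0 with equal totals. Mcm4, Mcm6 and Mcm7 were not called with quantile normalization, nor was Mcm7 with median centring. Mcm5, a subunit of the MCM helicase, had values of 4.17 (lowest), 4.24 (median) and 4.39 (highest) in spleen and of 5.20, 5.22, 5.35, 4.86 and 5.49 in tumor. The tumor libraries all lay above the spleen libraries, and tumor KO 1 was the lowest of them. The difference was 0.98 (SE 0.098, limma adjusted p = 1.01e-06), the largest among the 6 MCM genes, and it was 0.37 with equal totals. Mcm3 followed with 0.90, Mcm6 with 0.59, Mcm2 with 0.58, Mcm4 with 0.39 and Mcm7 with 0.34. Cdc45, which joins MCM to form the active helicase, rose most in this group, from 2.50 ± 0.19 (SD, n = 6) to 3.95 ± 0.24 (SD, n = 5), a difference of 1.45 (SE 0.13, limma adjusted p = 2.77e-07) that was 0.90 with equal totals. Cdc6 and Cdt1, which load the helicase onto origins, rose by 0.83 and 0.47, and with equal totals they stood at 0.32 and -0.13, not called. Mcm7 and Cdc6 have processed pseudogenes of similar sequence (97.68% and 95.22% identity), which are not among the listed genes and whose reads could have been shared with them.

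The nucleotide supply genes divided. Rrm2, the regulatory subunit of ribonucleotide reductase, had values of 3.62 (lowest), 4.16 (median) and 4.45 (highest) in spleen and of 5.49, 5.49, 5.71, 5.24 and 5.81 in tumor. No tumor value reached down to the spleen values, and the difference of 1.45 (SE 0.14, limma adjusted p = 9.38e-07) was 0.85 with equal totals. Rrm1, the catalytic subunit of the same enzyme, rose by 1.26, and Tk1, thymidine kinase of the salvage route, rose by 0.81, which was 0.20 and not called with equal totals. Tyms, which makes thymidylate in the de novo route, was not called, with 4.43 (lowest), 4.56 (median) and 4.85 (highest) in spleen and 4.28, 4.01, 4.45, 4.35 and 4.71 in tumor. Its groups overlapped, and its difference was -0.25 as deposited (SE 0.12, limma adjusted p = 0.0658). Tyms was called lower at -0.85 with equal totals, at -0.49 with quantile normalization and at -0.47 with median centring. Pcna, the sliding clamp of the replicative polymerases, was not called either, with 7.60 (lowest), 7.87 (median) and 8.15 (highest) in spleen and 7.97, 8.03, 8.09, 8.04 and 8.07 in tumor. The 5 tumor values lay inside the spleen range. The difference of 0.18 (SE 0.089, limma adjusted p = 0.0723) turned to -0.44 and past the threshold with equal totals. The median over all genes was also -0.44 there. With quantile normalization Pcna stood at -0.65 and was called lower, beside -0.16 over all genes. With median centring it stood at -0.03, not called. Pcna also has a processed pseudogene of 99.23% identity, which was not analysed here.

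The E2F factors moved apart. E2f1 (chr2:154559407-154569892, minus strand, GRCm38), an activator of S-phase genes, had values of 1.91 (lowest), 2.02 (median) and 2.24 (highest) in spleen and of 3.68, 4.0, 4.05, 3.49 and 4.14 in tumor. The groups were well separated, with a difference of 1.81 (SE 0.13, limma adjusted p = 3.48e-08) and of 1.28 with equal totals. E2f2 (chr4:136172394-136196057, plus strand, GRCm38), another activator-class factor that also restrains T-cell proliferation, had values of 3.69 (lowest), 4.13 (median) and 4.31 (highest) in spleen and of 3.71, 2.86 and 3.13 in tumor WT and 3.95 and 3.93 in tumor KO libraries. Its groups overlapped, since both tumor KO libraries and tumor WT 1 lay within the spleen range. The difference was -0.58 (SE 0.20, limma adjusted p = 0.0168) and -1.16 with equal totals. Within a library, E2f1 minus E2f2 ran from -2.35 to -1.69 in spleen and from -0.46 to 1.14 in tumor, a pair set side by side after the values were seen. Ccne1, cyclin E1, which drives entry into S phase with CDK2, was higher by 0.38 (SE 0.10, limma adjusted p = 0.00394) as deposited. It was not called with equal totals (-0.15), median centring (0.16) or quantile normalization (0.14).

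The mitotic cyclins, CDK1 and FOXM1 were higher in 5 of 5, with a median difference of 1.65, and all 5 stayed above 0 with equal totals, though Foxm1 at 0.20 was then not called. Cdk1 (chr10:69335146-69352938, minus strand, GRCm38), the kinase that drives entry into mitosis, had values of 2.86 (lowest), 3.48 (median) and 3.79 (highest) in spleen and of 5.69, 5.69, 5.93, 5.42 and 5.96 in tumor. The lowest tumor value stood well above the highest spleen value. The difference was 2.32 (SE 0.15, limma adjusted p = 1.82e-08), 5.0-fold on n + 1, and 1.73 with equal totals. Its window is the one printed above that holds E2F, CHR and CCAAT letters. Ccna2, cyclin A2, which acts in S phase and G2, rose by 1.82, Ccnb2, cyclin B2, by 1.65, and Ccnb1, cyclin B1, by 1.35. Ccnb1 has processed pseudogenes of up to 99.22% identity, which were not analysed here. Foxm1, the transcription factor of the late cell cycle genes, rose by 0.77, the smallest difference among the 28 mitotic genes that rose.

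The spindle checkpoint and anaphase-promoting complex genes were higher in 4 of 4, with a median difference of 1.50. Bub1b, which encodes the checkpoint protein BUBR1, rose by 1.80 (SE 0.13, limma adjusted p = 4.68e-08), and Bub1, its partner kinase, by 1.64. Cdc20, the activator of the anaphase-promoting complex, rose by 1.36, and Ube2c, the ubiquitin-conjugating enzyme of that complex, by 1.29. The mitotic kinases and passenger proteins were higher in 4 of 4, with a median of 1.20. Birc5, survivin, and Aurkb, both of the chromosomal passenger complex, rose by 1.51 and 1.36. Plk1 and Aurka, the kinases of spindle poles and mitotic entry, rose by 1.04 and 0.96. These 8 genes were also higher with equal totals, between 0.40 (Aurka) and 1.23 (Bub1b).

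The spindle and cytokinesis genes were higher in 8 of 8, with a median difference of 1.55, and held the largest rise among the 46. Anln (chr9:22332012-22389188, minus strand, GRCm38), anillin, a scaffold of the contractile ring, had values of 1.06 (lowest), 1.29 (median) and 1.55 (highest) in spleen and of 4.05, 4.89, 4.77, 3.59 and 4.86 in tumor. Tumor KO 1 and tumor WT 1 were the lowest tumor libraries and still far above spleen. The difference was 3.12 (SE 0.22, limma adjusted p = 3.94e-08), 8.67-fold on n + 1 and the 458th largest rise among all genes tested, and it was 2.62 with equal totals. Stmn1, stathmin, which destabilises microtubules and is not restricted to mitosis, rose by 2.02 from 5.07 ± 0.22 (SD, n = 6) to 7.09 ± 0.25 (SD, n = 5). A processed pseudogene of 99.78% identity was not analysed here. Nusap1 and Tpx2, which bind spindle microtubules, rose by 1.68 and 1.59, the motor genes Kif23, Kif11 and Kif20a by 1.50, 1.22 and 1.11, and Prc1, the bundler of the central spindle, by 0.87. All 8 genes were still higher with equal totals.

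The kinetochore genes were higher in 3 of 3, and all 3 differences stayed above 0 with equal totals, Cenpa then at 0.32 and not called. Cenpf had values of 1.65 (lowest), 1.97 (median) and 3.07 (highest) in spleen and of 3.68, 3.66, 3.90, 3.12 and 3.87 in tumor. Spleen KO 3 stood well above the other spleen libraries and just under tumor KO 1, so the groups were separated by a narrow margin. The difference was 1.54 (SE 0.24, limma adjusted p = 5.35e-05). Cenpe, a kinetochore motor, rose by 1.27, and Cenpa, the histone of centromeres, by 0.94.

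The chromosome structure genes were higher in 4 of 5, also with equal totals, and lower in 1. Mki67, the proliferation antigen Ki-67 that coats mitotic chromosomes, had values of 3.45 (lowest), 4.16 (median) and 4.40 (highest) in spleen and of 5.63, 5.53, 5.87, 5.28 and 5.84 in tumor. The groups did not overlap, and the difference was 1.55 (SE 0.17, limma adjusted p = 1.86e-06). Top2a, the topoisomerase that untangles sister chromatids, rose by 1.49, Smc2 by 1.28, and Hmgb2, a chromatin protein that is abundant in dividing cells, by 0.94. Smc4 (chr3:69004738-69034623, plus strand, GRCm38) was the exception. It had values of 8.37 (lowest), 8.71 (median) and 8.79 (highest) in spleen and of 6.89, 6.25, 6.49, 6.59 and 6.52 in tumor. Every tumor library lay below every spleen library (p = 0.0043 in an exact permutation test, two-sided, which is the lowest value possible with 6 and 5 libraries). Any gene without overlap reaches this value, as 35.2% of all genes did with tumor higher and 28.4% with tumor lower. The difference was -2.11 (SE 0.11, limma adjusted p = 1.76e-09), 4.33-fold lower on n + 1, and -2.74 with equal totals.

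Smc4 and Smc2 form the core of condensin, the complex that compacts mitotic chromosomes. Within a library, Smc4 minus Smc2 ran from 4.59 to 5.49 in spleen and from 1.40 to 2.30 in tumor, without overlap. Other condensin subunits were looked at after the values were seen. As deposited, Ncapg2 rose by 1.65, Ncaph by 1.38, Ncapg by 0.97 and Ncapd2 by 0.61, while Ncapd3 fell by 0.38. Their values with equal totals are not given here, and not every subunit is included. In GENCODE M21 no exon of another gene overlaps those of Smc4, and no near copy of its transcript was found.

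**Figure D4:**
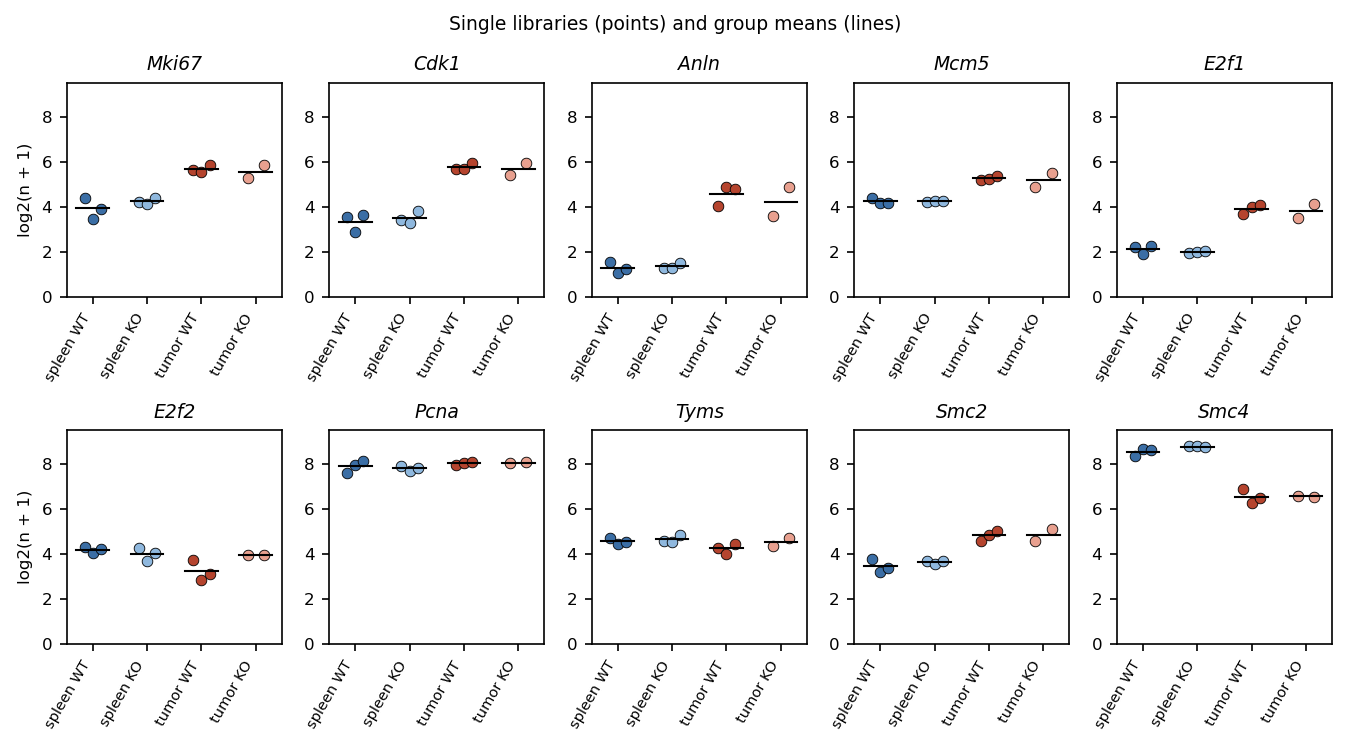
Values of 10 genes in single libraries (points, log2(n + 1), vertical axes from 0) with the mean of each tissue and genotype group (lines). As deposited, Mki67, Cdk1, Anln, Mcm5, E2f1 and Smc2 are higher in both tumor groups and Smc4 is lower in both, directions that the pooled comparison keeps with equal totals, while Pcna and Tyms stay near their spleen values but are called lower with equal totals; E2f2 is lowest in tumor WT libraries 2 and 3.

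The other genes of the pathway moved in the same tissue comparison as follows. Of 65 other mitotic genes, 50 were higher and 4 were lower, with a median difference of 1.15. The largest rises were those of Pbk (2.60), a mitotic kinase, Ckap2l (2.11), a spindle protein, and Spc25 (1.89), of the NDC80 kinetochore complex. The largest falls were those of Sgo1 (-0.65), which protects centromeric cohesion, Cenph (-0.41), of the inner kinetochore, and Cdc25b (-0.40), a phosphatase that activates CDK1. Of 47 other DNA replication genes, 31 were higher and 8 were lower, with a median of 0.56. Gins2 (1.75) and Gins1 (1.50), of the GINS part of the helicase, and Uhrf1 (1.49), which maintains DNA methylation behind the fork, rose most. Timeless (-1.51), of the fork protection complex, and Orc3 (-1.18) and Orc4 (-0.75), of the origin recognition complex, fell most. With equal totals the replication genes stood at 15 higher and 15 lower, and the other mitotic genes at 40 higher and 13 lower, beside 23.6% higher and 56.3% lower of all genes under that scaling.

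Genes that gate entry into S phase moved in both directions. Of 7 CDK inhibitor genes, 4 were higher and none was lower as deposited, and with equal totals 4 were higher and 3 lower. Cdkn1a, p21, which arrests the cycle after damage or differentiation and is made in many tissue cells, had values of 1.15 (lowest), 1.50 (median) and 2.13 (highest) in spleen and of 7.40, 8.42, 8.32, 7.93 and 8.27 in tumor. Its tumor and spleen values were far apart, and its difference of 6.51 (SE 0.19, limma adjusted p = 2.79e-11) was the 27th largest rise among all genes tested. Cdkn2c, p18, rose by 1.75, and Cdkn2a, the locus of p16 and p19ARF, rose by 1.26 from a low level. Of 7 other G1 cyclin and CDK genes, 4 were higher and 2 were lower. Ccnd1, cyclin D1, which resting lymphocytes barely use, rose by 4.40, from 1.92 ± 0.62 (SD, n = 6) to 6.32 ± 0.55 (SD, n = 5), and Cdk6 and Cdk4, its partner kinases, rose by 1.28 and 0.73. Ccnd3 and Ccnd2, the D cyclins of lymphocytes, fell by 1.14 and 0.84. With equal totals, 2 genes of this list were higher and 3 lower. Of 17 genes of pocket proteins, other E2F factors and DREAM subunits, 5 were higher and 6 were lower as deposited, with a median of -0.01, and 2 and 11 were with equal totals. The background for these counts was 43.1% higher and 35.9% lower of all genes as deposited, and 23.6% and 56.3% with equal totals. Lin54 (1.69), the subunit that contacts CHR elements, E2f8 (1.24) and Tfdp1 (0.72) rose most, and Lin9 (-1.13), Tfdp2 (-0.54) and Lin37 (-0.53) fell most.

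**Figure D5:**
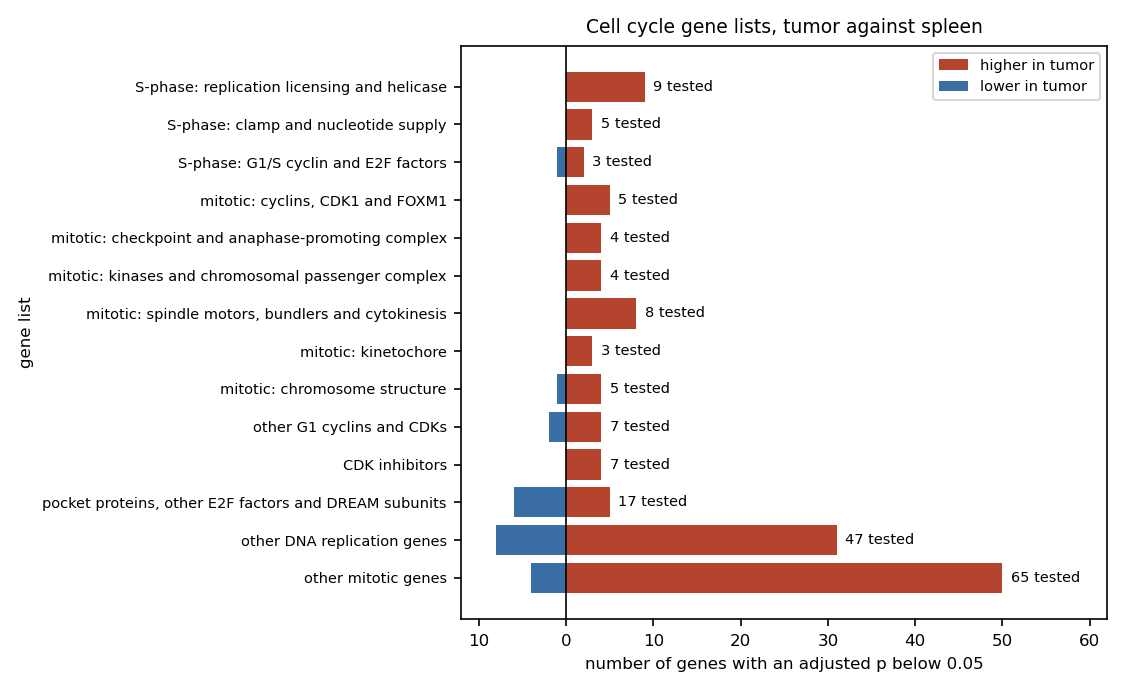
Number of genes in each cell cycle list (rows) that were higher (right, red) or lower (left, blue) in tumor than in spleen libraries as deposited, by limma with an adjusted p below 0.05, with the number tested beside each bar. The mitotic lists lie almost wholly to the right, 50 of 65 in the largest of them, while the list of pocket proteins, E2F factors and DREAM subunits holds 5 higher and 6 lower genes; with equal totals these counts are 40 of 65, and 2 and 11.

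Genes of other cell types moved with the same comparison. All 18 myeloid marker genes were higher in tumor, with a median difference of 4.97, and log2 of their summed n rose from 8.37 to 9.33 in spleen libraries to 13.8 to 14.3 in tumor libraries. Of 5 fibroblast markers listed, 4 were higher (sum 1.80 to 2.14 in spleen, 8.84 to 9.94 in tumor), and of 10 CD8 T and NK cell markers 6 were higher and 1 was lower (5.63 to 6.64 and 7.24 to 8.98). Of 2 epithelial markers tested, Cdh1 rose by 3.32 and Epcam stood at -0.20, not called (1.88 to 2.35 and 3.85 to 4.65 for the list). Of 7 erythroid markers tested, 6 were lower (7.21 to 10.1 and 3.14 to 6.43), of 5 platelet markers 4 were lower and Pf4, which macrophages can also express, was higher (4.82 to 5.84 and 7.87 to 9.28), and of 7 B cell markers 4 were lower and 1 was higher (4.51 to 6.13 and 4.93 to 5.49). Of 10 Treg and CD4 T cell markers, 2 were higher and 6 lower, and their sum ran from 11.1 to 11.3 in spleen and from 10.6 to 11.3 in tumor. Foxp3, the Treg-defining factor, went from 6.35 ± 0.30 (SD, n = 6 spleen libraries) to 5.50 ± 0.55 (SD, n = 5 tumor libraries), and Cd4 and Cd3e were lower by 0.42 and 0.62. Tnfrsf18, which encodes GITR of the sort, was higher by 1.08, and Il2ra, which encodes CD25, stood at -0.27, not called. No listed marker was at 0 in any library, but the same holds for all 14604 listed genes and so says nothing about the markers. Not listed were 4 of 9 fibroblast, 3 of 11 erythroid, 2 of 9 B cell and 2 of 5 epithelial markers. The part of other cell types in the differences of the cell cycle genes was not tested.

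Libraries of one tissue differed in the level of the whole set. Tumor KO 1 had the lowest tumor value for 35 of the 46 genes (23 mitotic and 12 S-phase), and tumor WT 3 and tumor KO 2 had the highest for 20 and 17. In spleen, spleen WT 2 had the lowest value for 31 genes, and spleen WT 1 and spleen KO 3 had the highest for 18 and 16. Among tumor libraries, the median over all genes tested was also lowest in tumor KO 1 (3.79) and highest in tumor KO 2 (3.88). Among spleen libraries, that median was lowest in spleen WT 2 (3.60) and highest in spleen KO 3 (3.64). How often each library was lowest or highest over all genes was not counted. In tumor KO 1 the summed Treg and CD4 markers stood at 11.2 and the summed myeloid markers at 13.9, both inside the range of the other tumor libraries. Its summed erythroid markers (6.43), epithelial markers (4.65, others 3.85 to 4.38) and B cell markers (5.49, others 4.93 to 5.21) were the highest of the tumor libraries, and its summed fibroblast markers (8.84, others 9.25 to 9.94) were the lowest. Spleen WT 2 had the lowest spleen sums of the myeloid (8.37), erythroid (7.21), B cell (4.51), platelet (4.82) and fibroblast (1.80) markers, and spleen WT 1 had the highest of the myeloid (9.33), erythroid (10.1), platelet (5.84) and fibroblast (2.14) markers. The part of these cells in the differences between libraries was not tested. In the comparison of tissues with genotypes pooled, no call was lost when any library was left out in turn. Without spleen WT 3, Pcna passed the threshold at 0.24, and without spleen WT 2 or tumor KO 2, Tyms passed it at -0.28 and -0.34.

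The design also asked whether loss of CD177 in Tregs changed these values. The tissue difference was present in both genotypes. In WT mice 44 of 46 genes were called, 42 higher and 2 lower, against 70.5% of all genes (39.2% higher and 31.3% lower). In KO mice 41 were called, 40 higher and Smc4 lower, against 65.7% of all genes (36.2% higher and 29.5% lower). The KO count was 21 with equal totals and 27 without tumor KO 2, which leaves tumor KO 1 as the lone tumor KO library. The median difference in WT mice was 0.63 for S-phase and 1.56 for mitotic genes, and in KO mice it was 0.54 and 1.19. The interaction of tissue and genotype was negative for all 29 mitotic genes, from -0.84 to -0.10. Its median was -0.39 for them and -0.02 over all genes, and the share of negative values over all genes was not counted. For Smc4 (-0.21) a negative value means a larger fall in KO mice, not a smaller rise. None of the 29 passed the threshold (smallest unadjusted p = 0.0689 from limma), and 0% of all genes did. These 29 values share the same libraries, tumor KO 1 and spleen WT 2 among them, and are not independent. Both tissues enter the interaction. From WT to KO, 28 of the 29 genes were higher in spleen (median 0.23) and 25 were lower in tumor (median -0.19). The medians over all genes were 0.01 and -0.01, and the shares of each sign over all genes were not counted. Over all genes, 383 had an unadjusted p below 0.05 for the interaction, and among the 46 only E2f2 did (0.90, SE 0.32, limma adjusted p = 0.9997).

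Between KO and WT libraries of one tissue, no cell cycle gene was called by limma. In spleen 0% of all genes were called, 281 genes had an unadjusted p below 0.05, and 2 of the 46 were among them. These were Hmgb2, at 5.27 ± 0.19 (SD, n = 3) in WT and 5.50 ± 0.07 (SD, n = 3) in KO libraries, and Cenpa, at 5.09 ± 0.21 and 5.50 ± 0.29. In tumor 0.0072% of all genes were called (1 gene), 634 genes had an unadjusted p below 0.05, and 2 of the 46, E2f2 and Tk1, were among them. E2f2 was 3.23 ± 0.44 (SD, n = 3) in tumor WT and 3.94 ± 0.01 (SD, n = 2) in tumor KO libraries, a difference of 0.71 (SE 0.24, limma adjusted p = 0.9997). Its spleen values were 4.19 ± 0.13 (SD, n = 3) in WT and 4.0 ± 0.29 (SD, n = 3) in KO libraries. Tk1 was 5.44 ± 0.18 (SD, n = 3) in tumor WT and 5.73 ± 0.12 (SD, n = 2) in tumor KO libraries. With 3 against 2 tumor libraries, the median SE over the 46 genes was 0.21. Differences well above that size could also be missed, since E2f2 at 0.71 was not called.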

How the data were processed

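RNA of sorted Tregs was sequenced as single-end reads of 75 bases in 11 libraries, which the labels assign to a tissue and a genotype. Per the study's methods, the authors used kallisto pseudoalignment against mm10 (version and annotation release not given in the sources used here), processed estimated counts with sleuth 0.30.0, summed them by gene symbol and deposited log2(n + 1) values. Neither the scaling of n nor the strand of the reads is stated. The study gives only 1 approximate read depth for all libraries, and the reads behind each value are not known, which leaves no counting interval. Levels are not compared between genes.

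The deposited log2 values were used without further scaling. Genes with a mean of at least 0.5 were kept (13897 of 14604). limma 3.58.1 in R 4.3.3 (lmFit, eBayes with a mean-variance trend) compared 6 spleen with 5 tumor libraries, genotypes pooled, and in a second model with 4 group means gave the differences within a genotype, the interaction and KO against WT. A gene was called at p below 0.05 after Benjamini-Hochberg adjustment over all genes tested. Single values were also compared by an exact two-sided permutation test over all 462 splits. The fit was tested on simulated data.

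The members and lists were chosen with earlier results of these data known. Any member may be named. Of each other list, up to 3 called genes per direction with the largest difference were named, with Foxp3, Il2ra, Tnfrsf18, Cd4 and Cd3e, and in the genotype comparisons up to 3 members with the smallest unadjusted p. Ncapg2, Ncaph, Ncapg, Ncapd2, Ncapd3, Epcam and Gm12896 were named after their values were seen.

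Gene positions came from GENCODE M21 (GRCm38), promoter windows from RefSeq (GRCm38.p6). BLAST 2.17.0 searched near copies of each member's longest coding transcript (at least 95% identity over at least 30% of its length). It found processed pseudogenes for 5 members, Ccnb1, Cdc6, Mcm7, Pcna and Stmn1. Exons of 13 members overlap an exon of another gene, 4 on the same and 10 on the opposite strand. No promoter window was found for Mcm4, Ccna2, Foxm1, Aurkb, Kif20a, Tpx2, Stmn1 and Smc4.

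Alternatives changed the scaling, the pseudocount (0.1 or 5), the filter, the variance model, the correction, a fold minimum, the covariate, the replicate block and the libraries used.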

Additional observations from a re-analysis of the deposited data

Results flagged for a closer look

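For each of the 46 genes and for several summary values, the lowest and the highest library of each tissue were compared with the others of that tissue by Dixon's test, in 98 groups. In 5 groups 1 library stood apart, and chance alone gives about 4.9 (1 in 20). Tumor KO 1 was low for Cdc6 (2.23, other tumor libraries 2.92 to 3.11), Cenpe (2.47, others 3.0 to 3.20) and Top2a (6.39, others 6.92 to 7.02). Spleen WT 2 was low for Rrm1 (3.70, other spleen libraries 4.01 to 4.13), and tumor WT 2 was low for Ccne1 (2.62, others 2.91 to 2.94).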

How the results depend on the processing

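Of the 46 genes, 22 kept their direction and their side of the threshold between tumor and spleen in every alternative run. Signs reversed with equal library totals for Cdt1 (-0.13), Mcm2 (-0.026), Mcm4 (-0.22), Mcm6 (-0.026), Mcm7 (-0.28), Pcna (-0.44) and Ccne1 (-0.15), and for Pcna also with quantile normalization (-0.65) and median centring (-0.034). These 3 scalings moved the median difference over all genes from 0.08 to -0.44, -0.16 and -0.14. Over all genes, 54.5% of calls were higher as deposited, 43.7% with median centring, 42.1% with quantile normalization and 29.6% with equal totals.
The number of members called was 26 with a Bonferroni correction and 28 when a difference of at least 1 was also asked. The S-phase genes higher were then 6 and 4, and 5 with equal totals. The S-phase genes lower were 3 with quantile normalization, 2 with median centring, 5 with equal totals and 0 with either stricter rule, and 1 to 2 with a library left out. In WT mice the Bonferroni correction left 9 calls. In KO mice it left 4, the fold minimum 25 and equal totals 21, and leaving out a library gave 27 to 42 calls. A pseudocount of 5 changed the shift between S-phase and mitotic means from -0.66 to -0.47.
The labels do not say whether a replicate number shared by a tumor and a spleen library of one genotype marks the same mouse. The correlations between such libraries, in their deviations from the group means, were -0.13, 0.01 and -0.07 in WT and 0.02 and 0.04 in KO mice. No spleen library correlated best with the tumor library of its own number. These values cannot decide the question, since the deviations of the 2 tumor KO libraries mirror each other and the pairs are few. With a replicate block, 44 members were called between tumor and spleen. A fixed block could not be fitted for KO against WT within a tissue, where replicates are nested in genotype. A random block, added after seeing the data, called 0 members in either tissue. Leaving out tumor KO 1 and spleen KO 2 together was also added after seeing the data. The reads behind each value are not known, so precision rests on the spread between libraries.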
